A study of Mus musculus with 8 samples.

Results

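The SUMO conjugation pathway was examined through 8 member genes: the modifiers Sumo2 and Sumo3, the activating enzyme subunits Sae1 and Uba2, the ligases Pias1, Pias2 and Pias4, and the protease Senp2. The members were chosen by function, together with the measured values of Sumo2, which had been noted for high CPEB4 RIP values. Of the 8 member genes, 7 had at least 1 probe set named with their symbol alone, 14 probe sets among 45101 in all. No probe set carried the Uba2 symbol alone in the annotation used, so Uba2 is not analysed here.

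RNA bound to CPEB4 and CPEB1, proteins that bind cytoplasmic polyadenylation elements in the 3′ untranslated regions of mRNAs, was isolated from striatum of mice by immunoprecipitation (RNA immunoprecipitation, RIP) and read on Affymetrix arrays. Striatum of male HD mice and male WT mice aged 7 to 8 months was pooled within each genotype, and the design text names 4 mice; the labels do not spell out HD. Each pool was treated with formaldehyde, lysed and divided into RIP with antibody to CPEB4, RIP with antibody to CPEB1, RIP with rabbit IgG (the control for RNA carried down without a specific antibody) and an input aliquot. RNA of every fraction was amplified over 27 cycles and 8 µg of cDNA went on each array, so the 4 fractions and 2 genotypes make 8 groups of 1 array, with no replicate within a group. All RNA in a RIP comes from whole striatum, in which fewer cells of a type and less RNA per cell cannot be told apart.

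SUMO proteins are small modifiers that are joined to lysines of other proteins and taken off again. A dimer of Sae1 and Uba2 activates the modifier, ligases such as the Pias proteins help to place it on a target, and Senp proteases mature the modifier and remove it. In neurons the pathway acts on transcription factors, receptors and synaptic proteins, and huntingtin is among the proteins that can carry SUMO.

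Values are log2 summaries of a probe set made by the authors with RMA, and a difference of 1 is 2-fold. A gene with several probe sets was represented by the one with the highest mean over the 8 arrays. A gene entered the limma fit if its mean exceeded 4.23, which is the median over the means of all probe sets, and 11345 genes did; the fit ran across all 8 arrays, with the genotype pool as a block and Benjamini-Hochberg adjustment at 0.05. The 2 pools thus stand in for replicates, and a p-value sets a mean difference against how unevenly fractions differ between the pools. That spread is shared by all 8 arrays, so a p-value also reflects disagreement of the pools in fractions that are not compared. Of the 7 members with a probe set, 6 were tested; Pias1 lay below the threshold. Outside CPEB4 RIP, 4 of the 6 Sumo3 values lay below 4.23, so its mean rests largely on the CPEB4 RIP arrays.

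The arrays had medians between 4.03 and 4.28. Within each pool, values were spread most widely on the CPEB4 RIP array. The standard deviation over probe sets was 1.69 in HD and 1.80 in WT CPEB4 RIP, and 1.44 in HD and 1.71 in WT CPEB1 RIP. It was 1.36 in HD and 1.46 in WT IgG RIP, and 1.55 in HD and 1.43 in WT input. The spread thus also differed between the pools, and the WT CPEB1 RIP array exceeded the HD CPEB4 RIP array. Of 10 markers of medium spiny neurons, the principal neurons of striatum, 8 had a probe set and 7 lay above 4.23 in both inputs. The labelled HD and WT pools differed in those markers: their mean was 7.59 in HD and 8.61 in WT CPEB4 RIP, 7.12 in HD and 8.68 in WT CPEB1 RIP, 6.81 in HD and 8.38 in WT IgG RIP, and 7.49 in HD and 7.67 in WT input. Not every member of that list was lower in HD. Rgs9 read 9.76 in HD and 8.67 in WT input, while Ppp1r1b read 10.30 in HD and 11.07 in WT input. In input, the mean of 4 markers of choroid plexus and ependyma was 6.17 in HD and 5.19 in WT, and that of 5 astrocyte markers was 6.27 in HD and 5.54 in WT. The members of these lists differed: Ttr read 10.49 in HD and 6.60 in WT while Foxj1 read 4.93 in HD and 5.18 in WT, and Gfap read 8.61 in HD and 6.13 in WT while Aldh1l1 read 4.47 in HD and 5.64 in WT. The part of these differences in the results below was not tested.

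Sumo2, which encodes a modifier that is joined to many proteins under cell stress, had high values in CPEB4 RIP and in input and low values in CPEB1 RIP and IgG RIP. Its representative probe set, 1415781_PM_a_at, read 9.38 in HD and 9.06 in WT CPEB4 RIP, 4.35 in HD and 4.15 in WT CPEB1 RIP, 2.79 in HD and 4.83 in WT IgG RIP, and 9.07 in HD and 8.02 in WT input. The CPEB4 RIP arrays overlapped the input arrays, and the CPEB1 RIP arrays lay within the range of the IgG RIP arrays; every CPEB4 RIP and input value lay above every CPEB1 RIP and IgG RIP value. CPEB4 RIP exceeded IgG RIP by 6.59 in the HD pool and 4.23 in the WT pool, a mean of 5.41 ± 0.75 (SE). The HD IgG RIP value lay below 4.23, among the low values of its array, so no fold is given. This difference is the one on which Sumo2 was noted, and it is given as a description. Sumo2 in CPEB4 RIP exceeded CPEB1 RIP by 5.03 in the HD pool and 4.92 in the WT pool.

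Against input, the same Sumo2 probe set in CPEB4 RIP was higher by only 0.31 in the HD pool and 1.04 in the WT pool. The other 2 fractions lay far below input. Sumo2 in CPEB1 RIP minus input was -4.72 in the HD pool and -3.87 in the WT pool, and in IgG RIP minus input it was -6.28 in the HD pool and -3.19 in the WT pool. CPEB1 RIP over input is the only difference of Sumo2 that shares no array with the one on which it was noted. There the mean difference of -4.30 ± 0.75 (SE) did not pass limma's test (adjusted p = 0.194), although both pools had the same direction. The SE is estimated over all arrays of the fit, including the CPEB4 RIP and IgG RIP arrays on which Sumo2 was noted. The test is therefore not independent of that choice, and nothing is read from it.

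The other Sumo2 probe set, 1415782_PM_at, disagreed with the first in input. It read 6.66 in HD and 6.93 in WT CPEB4 RIP, 4.14 in HD and 3.87 in WT CPEB1 RIP, 4.98 in HD and 4.88 in WT IgG RIP, and 4.16 in HD and 4.19 in WT input. Here the CPEB4 RIP arrays were above the arrays of every other fraction, input included. CPEB4 RIP exceeded IgG RIP by 1.68 in the HD pool and 2.05 in the WT pool. Over input the excess was 2.50 in the HD pool and 2.75 in the WT pool, and over CPEB1 RIP it was 2.52 in the HD pool and 3.06 in the WT pool. CPEB1 RIP minus input was -0.02 in the HD pool and -0.32 in the WT pool, so the low CPEB1 RIP value against input was seen with the representative probe set only. The input and CPEB1 RIP values of this other probe set all lay below 4.23, so it could hardly show a drop from input. The probe sequences of the 2 probe sets are not used here.

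**Figure D1:**
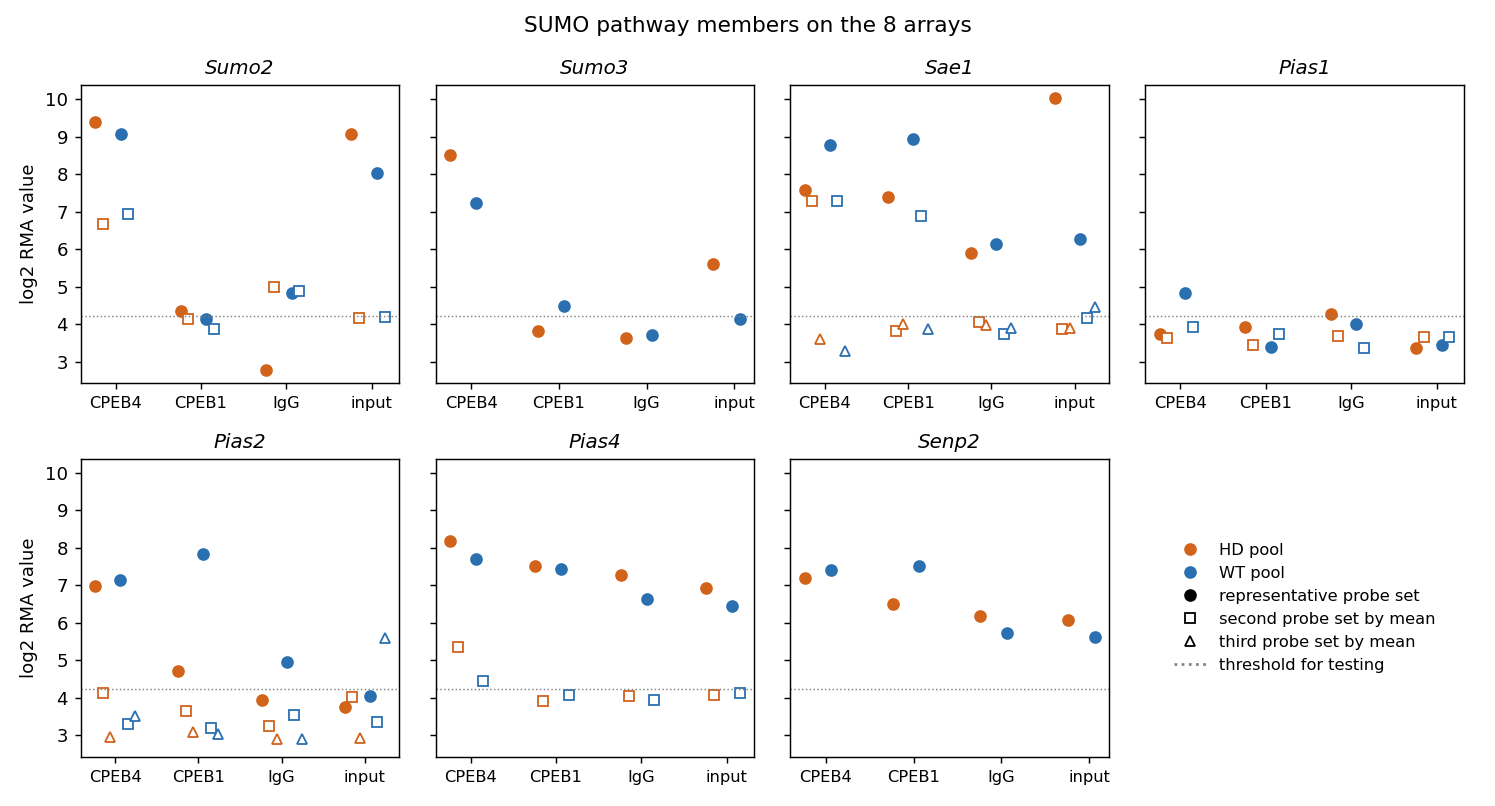
Log2 RMA value (vertical axis) of each probe set of the 7 members with a probe set, in the CPEB4 RIP, CPEB1 RIP, IgG RIP and input fractions (horizontal axis); each point is 1 array, orange for the HD pool and blue for the WT pool, and the dotted line is the threshold for testing, 4.23. Both Sumo2 probe sets and Sumo3 are high in CPEB4 RIP in both pools, and input reads 9.07 and 8.02 with the representative Sumo2 probe set but 4.16 and 4.19 with the other.

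Sumo3, the modifier closest to Sumo2 in sequence, was high on the CPEB4 RIP arrays. Its probe set, 1422457_PM_s_at, read 8.50 in HD and 7.24 in WT CPEB4 RIP, 3.81 in HD and 4.48 in WT CPEB1 RIP, 3.64 in HD and 3.71 in WT IgG RIP, and 5.61 in HD and 4.15 in WT input. Both CPEB4 RIP values lay above all 6 others. The suffix of the probe set marks probes that may match transcripts of more than 1 gene, so its values may include another transcript. CPEB4 RIP exceeded IgG RIP by 4.86 in the HD pool and 3.52 in the WT pool, a mean of 4.19 ± 0.60 (SE); both IgG RIP values lay below 4.23, so no fold is given.

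Sumo3 over input differed little between the pools: CPEB4 RIP was higher by 2.89 in the HD pool and 3.09 in the WT pool. The mean of 2.99 ± 0.60 (SE) did not pass limma's test (adjusted p = 0.0806). Over CPEB1 RIP the excess of Sumo3 was 4.69 in the HD pool and 2.75 in the WT pool, and its mean of 3.72 ± 0.60 (SE) did not pass either (limma adjusted p = 0.0950). Nothing is read from either test, since the mean by which Sumo3 entered the fit rests largely on the CPEB4 RIP arrays. Sumo3 in CPEB1 RIP minus input was -1.80 in the HD pool and 0.34 in the WT pool, opposite directions in the 2 pools.

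Sae1, a subunit of the activating enzyme, gave different pictures with its 3 probe sets. The representative one, 1430021_PM_a_at, read 7.57 in HD and 8.77 in WT CPEB4 RIP, 7.40 in HD and 8.95 in WT CPEB1 RIP, 5.91 in HD and 6.13 in WT IgG RIP, and 10.02 in HD and 6.27 in WT input. Its HD input array was the highest of the 8 and lay 3.75 above the WT input array, while in both antibody RIPs the HD array lay below the WT array. CPEB4 RIP of Sae1 exceeded IgG RIP by 1.67 in the HD pool and 2.64 in the WT pool. CPEB1 RIP exceeded IgG RIP by 1.49 in the HD pool and 2.82 in the WT pool, a mean of 2.16 ± 1.32 (SE) that did not pass limma's test (adjusted p = 0.829).

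Against input the direction of Sae1 differed with the pool. CPEB4 RIP minus input was -2.45 in the HD pool and 2.50 in the WT pool, and CPEB1 RIP minus input was -2.62 in the HD pool and 2.68 in the WT pool. The fitted means were therefore close to 0 (0.02 ± 1.32 for CPEB4 RIP and 0.03 ± 1.32 for CPEB1 RIP, SE). With another probe set, 1416443_PM_a_at, Sae1 read 7.30 in HD and 7.28 in WT CPEB4 RIP, 3.83 in HD and 6.89 in WT CPEB1 RIP, 4.06 in HD and 3.72 in WT IgG RIP, and 3.88 in HD and 4.16 in WT input. That probe set had no high HD input value, and CPEB4 RIP lay above input by 3.41 in the HD pool and 3.12 in the WT pool. Its input values in both pools lay below 4.23. The mean excess of 3.27 ± 0.87 (SE) did not pass the test over all probe sets (limma adjusted p = 0.117). The remaining probe set of Sae1, 1430022_PM_at, stayed between 3.30 and 4.45 on every array.

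Pias2, a ligase of the Pias family, was high in CPEB4 RIP of both pools and in CPEB1 RIP of the WT pool. Its representative probe set, 1426456_PM_a_at, read 6.99 in HD and 7.14 in WT CPEB4 RIP, 4.73 in HD and 7.83 in WT CPEB1 RIP, 3.93 in HD and 4.96 in WT IgG RIP, and 3.77 in HD and 4.04 in WT input. The CPEB4 RIP arrays lay above the IgG RIP and input arrays, and the CPEB1 RIP arrays were 3.10 apart, the HD array below and the WT array above both CPEB4 RIP arrays. CPEB4 RIP exceeded IgG RIP by 3.05 in the HD pool and 2.18 in the WT pool. Over input Pias2 was higher by 3.22 in the HD pool and 3.10 in the WT pool, and the mean of 3.16 ± 0.76 (SE) did not pass limma's test (adjusted p = 0.107). The input values in both pools lay below 4.23.

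For CPEB1 RIP over input, Pias2 differed by 0.96 in the HD pool and 3.79 in the WT pool, with a mean of 2.38 ± 0.76 (SE; limma adjusted p = 0.506). The other Pias2 probe sets did not show these differences. Probe set 1428725_PM_at ranged from 3.19 to 4.12 over the 8 arrays. Probe set 1419454_PM_x_at stayed between 2.90 and 3.52 on 7 arrays and read 5.60 in WT input.

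Pias4, another ligase of the family, kept the same order of fractions in both pools. Probe set 1418861_PM_at read 8.19 in HD and 7.71 in WT CPEB4 RIP, 7.52 in HD and 7.43 in WT CPEB1 RIP, 7.28 in HD and 6.63 in WT IgG RIP, and 6.92 in HD and 6.44 in WT input. In each pool CPEB4 RIP was highest, then CPEB1 RIP, IgG RIP and input; across the pools both CPEB4 RIP arrays lay above both CPEB1 RIP arrays and these above the rest, while IgG RIP and input overlapped. CPEB4 RIP exceeded input by 1.27 in each pool, and the mean of 1.27 ± 0.27 (SE), 2.41-fold, did not pass limma's test (adjusted p = 0.0872). CPEB4 RIP exceeded IgG RIP by 0.91 in the HD pool and 1.09 in the WT pool. After quantile normalization, which gives all arrays the same spread, the mean of the 2 pools was -0.093.

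The other Pias4 probe set, 1455394_PM_at, read 5.36 in HD and 4.46 in WT CPEB4 RIP and between 3.91 and 4.13 on the 6 other arrays. Its 2 CPEB4 RIP arrays were thus the highest as well. Pias1, the ligase whose mean was below the threshold, had no value above 4.84 and was not tested. Its representative probe set, 1422581_PM_at, read 3.75 in HD and 4.84 in WT CPEB4 RIP, 3.93 in HD and 3.38 in WT CPEB1 RIP, 4.28 in HD and 3.99 in WT IgG RIP, and 3.36 in HD and 3.45 in WT input. The CPEB4 RIP arrays of Pias1 lay on either side of its IgG RIP arrays. The other Pias1 probe set, 1455611_PM_at, ranged from 3.35 to 3.93.

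Senp2, the protease, was somewhat higher in both antibody RIPs than in IgG RIP and input. Probe set 1455327_PM_at read 7.19 in HD and 7.41 in WT CPEB4 RIP, 6.50 in HD and 7.53 in WT CPEB1 RIP, 6.19 in HD and 5.73 in WT IgG RIP, and 6.09 in HD and 5.64 in WT input. All 4 antibody arrays lay above all 4 IgG RIP and input arrays, and the CPEB4 RIP values lay within the range of the CPEB1 RIP values. CPEB4 RIP exceeded IgG RIP by 0.996 in the HD pool and 1.68 in the WT pool, and input by 1.10 in the HD pool and 1.78 in the WT pool. The mean over input was 1.44 ± 0.44 (SE; limma adjusted p = 0.142). CPEB1 RIP over input averaged 1.15 ± 0.44 (SE; limma adjusted p = 0.600), with 0.41 in the HD pool and 1.89 in the WT pool.

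**Figure D2:**
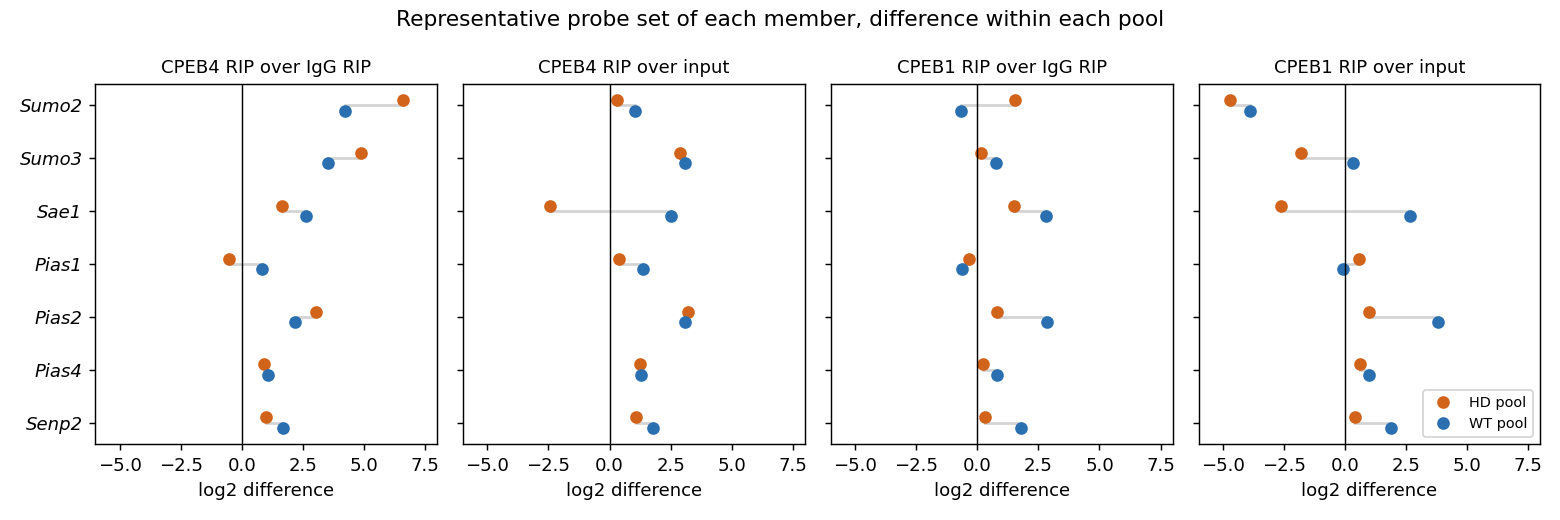
Log2 difference (horizontal axis) of the representative probe set of each member (vertical axis) for CPEB4 RIP over IgG RIP, CPEB4 RIP over input, CPEB1 RIP over IgG RIP and CPEB1 RIP over input; each point is the difference of 2 arrays of 1 pool, orange for HD and blue for WT, joined by a grey line. Sumo2 lies at 6.59 and 4.23 over IgG in CPEB4 RIP and at -4.72 and -3.87 below input in CPEB1 RIP, and Sae1 over input lies on opposite sides of 0 in the 2 pools.

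Counted together, the 6 tested members had a median CPEB4 RIP over IgG RIP difference of 2.39, against 0.30 for the other pathway genes and -0.06 for all genes tested. Sumo2 and Sumo3 were past the threshold that called 2.37% of the 11345 genes (269), and 4 of the 6 members (Sumo2, Sumo3, Sae1 and Pias2) were higher by 2-fold or more in both pools, as were 14.3% of all genes; nothing is read from these counts, since the contrast was used to choose the list. Both calls were lost without the filter on low values, after quantile normalization and without any 1 of the CPEB4 RIP, IgG RIP or input arrays. In CPEB4 RIP over input, the median of the 6 members was 1.35, against 0.29 for the other pathway genes and -0.15 for all genes. Apart from Sumo2, which is only described there, none of the other 5 passed limma's test, which called 1.36% of genes (154), and 4 of these 5 had an unadjusted p under 0.05, as had 2967 genes or 26.2% of those tested. The 4 members higher by 2-fold or more in both pools over input were Sumo3, Pias2, Pias4 and Senp2, and 11.9% of all genes met this criterion. Nothing is read from these counts over input or from that median. The median includes Sumo2, noted on the CPEB4 RIP arrays, and the mean of Sumo3 rests largely on the same arrays.

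CPEB4 RIP over CPEB1 RIP gave the members a median of 0.63, against 0.08 for the other pathway genes and -0.21 for all genes. None of the 5 members other than Sumo2 passed limma's test, which called 0.141% of genes (16), and 1 of them, Sumo3, had an unadjusted p under 0.05, as had 1740 genes. Sumo2 and Sumo3 were higher by 2-fold or more in both pools, a criterion met by 7.82% of genes. Nothing is read from these counts or the median. Sumo2 was noted for high CPEB4 RIP values, and the mean of Sumo3 over the arrays rests largely on CPEB4 RIP. The comparisons of CPEB4 RIP share the CPEB4 RIP arrays, and those over IgG RIP share the IgG RIP arrays, so they are not independent of one another.

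For CPEB1 RIP the members showed no call. Over IgG RIP, limma called 0% of genes (0 of 11345) and no member; no member and 836 genes had an unadjusted p under 0.05, and the smallest adjusted p of a member was 0.703. Over input, limma called 0.0176% of genes (2) and no member; 4 members (Sumo2, Pias2, Pias4 and Senp2) and 916 genes, 8.07% of those tested, had an unadjusted p under 0.05. Of these 4, Sumo2 was lower in CPEB1 RIP and the other 3 were higher. Nothing is read from the Sumo2 tests for CPEB1 RIP, whose SE rests also on the arrays on which Sumo2 was noted. IgG RIP over input called 0.0264% of genes (3) and none of the 5 members other than Sumo2; none of these 5 and 1106 genes had an unadjusted p under 0.05.

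The other genes of the pathway were read from a list of 28, of which 23 had a probe set and 17 were tested. None of the 17 passed limma's test in any of the 6 comparisons; the number with an unadjusted p under 0.05 was 3 for CPEB4 RIP over IgG RIP, 1 for CPEB4 RIP over input, 1 for CPEB4 RIP over CPEB1 RIP, 1 for CPEB1 RIP over IgG RIP, 0 for CPEB1 RIP over input and 2 for IgG RIP over input. The shares of all genes with such a p were 22.9%, 26.2%, 15.3%, 7.37%, 8.07% and 9.75% in the same order of comparisons. In CPEB4 RIP over IgG RIP, 11 of the 17 had a fitted difference above 0, against 5376 of all genes tested, and 4 (23.5%) were above 0 in both pools, against 33.8% of all genes.

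The largest CPEB4 RIP over IgG RIP difference among these genes was that of Desi1, a deSUMOylating isopeptidase. Desi1 read 7.03 in HD and 8.54 in WT CPEB4 RIP, 6.79 in HD and 7.35 in WT CPEB1 RIP, 5.58 in HD and 6.46 in WT IgG RIP, and 6.84 in HD and 6.74 in WT input. Its mean excess over IgG RIP was 1.77 ± 0.43 (SE; limma adjusted p = 0.108), and the IgG RIP arrays were also its 2 lowest. Senp6, a protease that trims chains of Sumo2 and Sumo3, read 5.56 in HD and 7.34 in WT CPEB4 RIP, against 4.90 in HD and 5.02 in WT IgG RIP. Its mean excess of 1.49 ± 0.51 (SE; limma adjusted p = 0.185) came mostly from the WT pool, and the other Senp6 probe set above the threshold, 1427984_PM_at, differed by -0.09 in HD and -0.25 in WT.

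Mul1, a mitochondrial ligase for ubiquitin and SUMO, read 6.41 in HD and 6.44 in WT CPEB4 RIP, 6.73 in HD and 6.61 in WT CPEB1 RIP, 5.22 in HD and 5.70 in WT IgG RIP, and 6.94 in HD and 7.04 in WT input. The difference of Mul1 from IgG RIP (0.96 ± 0.27, SE; limma adjusted p = 0.141) thus stood beside values of this probe set below input in all 3 RIPs. Uspl1, another SUMO isopeptidase, read 7.84 in HD and 5.87 in WT CPEB4 RIP, against 5.84 in HD and 6.19 in WT IgG RIP, opposite directions in the 2 pools (0.84 ± 0.69, SE; limma adjusted p = 0.452). For CPEB1 RIP over input the largest differences belonged to Rasd2, a striatal small GTPase described as a SUMO ligase for huntingtin, at 0.80 ± 0.60 (SE; limma adjusted p = 0.808) with its representative probe set and -0.26 with the other, and to Nsmce2, a ligase of the SMC5/6 complex, at -0.60 ± 0.36 (SE; limma adjusted p = 0.770).

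A probe set of the SUMO protease Senp1 that was not the representative one, 1424330_PM_at, separated CPEB4 RIP from every other fraction; it was singled out after its values were seen. It read 7.13 in HD and 6.75 in WT CPEB4 RIP, 3.91 in HD and 4.22 in WT CPEB1 RIP, 4.27 in HD and 3.90 in WT IgG RIP, and 3.65 in HD and 3.86 in WT input. Since its other 6 values lay between 3.65 and 4.27, the probe set passed the filter only through the CPEB4 RIP arrays, and its differences are given as a description with no test. In this probe set CPEB4 RIP exceeded IgG RIP by 2.85 ± 0.31 (SE), input by 3.18 ± 0.31 (SE) and CPEB1 RIP by 2.87 ± 0.31 (SE). In limma's fit over all 22550 probe sets above the threshold it was among the 2.87% of probe sets past the threshold over IgG RIP, the 2.4% over input and the 0.754% over CPEB1 RIP. Nothing is read from its place there, which was lost after quantile normalization and whenever an array of either fraction compared was left out.

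The other Senp1 probe sets did not show this pattern. Senp1 probe set 1451319_PM_at, its representative, read 4.64 in HD and 6.23 in WT CPEB4 RIP and between 4.43 and 5.15 on the 6 other arrays. Probe set 1428925_PM_at was lowest in CPEB4 RIP, at 3.34 in HD and 3.43 in WT. Desi2, a relative of Desi1 whose mean lay just below the threshold, read 5.18 in HD and 5.31 in WT CPEB4 RIP and between 3.63 and 3.91 on the 6 other arrays; it too was singled out after its values were seen. Without the filter on low values, its CPEB4 RIP over IgG RIP difference was 1.45 ± 0.18 (SE), which is given as a description. In that fit Desi2 was among the 1.26% of 17097 genes past limma's threshold. Nothing is read from that place, since Desi2 was singled out on its values and its representative probe set was high only in CPEB4 RIP. The other Desi2 probe set, 1425185_PM_at, read 3.22 in HD and 4.61 in WT CPEB4 RIP. In IgG RIP it read 3.61 in HD and 3.57 in WT, so the pools differed in direction.

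**Figure D3:**
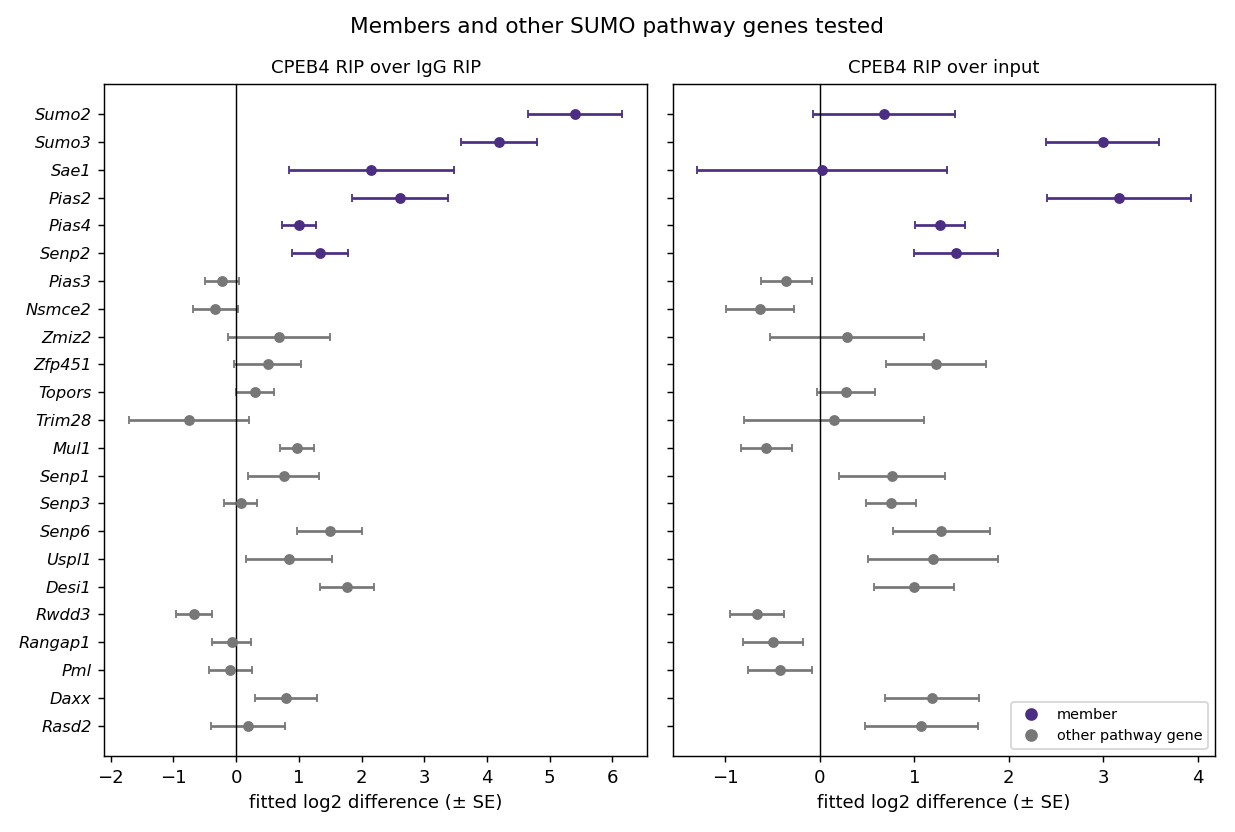
Fitted log2 difference with its SE (horizontal axis) of the 6 tested members (purple) and the 17 other tested pathway genes (grey) for CPEB4 RIP over IgG RIP and for CPEB4 RIP over input, from limma on the representative probe set over 8 arrays. Sumo2 at 5.41 and Sumo3 at 4.19 lie farthest from 0 over IgG RIP, and Pias2 at 3.16 and Sumo3 at 2.99 lie farthest over input.

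The genes whose representative probe sets were most like Sumo2 over the 8 arrays were Vapa (Pearson r = 0.973), Epn2 (0.972), Adam22 (0.957), Fkbp1a (0.951) and Pcid2 (0.941), among 11344 tested genes. These 8 points are 4 fractions of 2 pools, so the correlation mostly follows the fractions and is given as a description. Vapa, a membrane protein of the endoplasmic reticulum, read 7.76 in HD and 7.51 in WT CPEB4 RIP, 4.42 in HD and 4.47 in WT CPEB1 RIP, 3.75 in HD and 4.48 in WT IgG RIP, and 8.76 in HD and 6.82 in WT input. Vapa thus had the same split as Sumo2, with CPEB4 RIP and input above CPEB1 RIP and IgG RIP. Within the pathway, Sumo3 was nearest to Sumo2 (r = 0.789, rank 211), followed by Mul1 (r = 0.583) and Desi1 (r = 0.574). Pias2, Pias4 and Senp2 had r between 0.14 and 0.16.

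HD and WT were compared within each fraction with 1 array each, so these differences carry no replicate check and no test. Over the 6 tested members and 4 fractions, 10 of 24 differences reached 2-fold. In CPEB4 RIP, Sumo3 was 1.27 higher in HD and Sae1 1.20 lower in HD, while 16.2% of all genes were past 2-fold, 516 higher and 1320 lower. In CPEB1 RIP, HD minus WT was -3.10 for Pias2, -1.56 for Sae1 and -1.03 for Senp2, and 21.2% of genes were past 2-fold, 379 higher and 2031 lower. In IgG RIP it was -2.05 for Sumo2 and -1.03 for Pias2, with 15.4% of genes past 2-fold, 604 higher and 1138 lower.

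In input, HD minus WT was 3.75 for Sae1, 1.46 for Sumo3 and 1.04 for Sumo2, and 15.7% of genes were past 2-fold, 1277 higher and 503 lower. The probe sets disagreed for both genes that have others: the other Sumo2 probe set differed by -0.03 in input and Sae1 probe set 1416443_PM_a_at by -0.28. The input values of these other probe sets lay below 4.23 in both pools. Sumo3 has no other probe set. In each fraction except CPEB4 RIP the members past 2-fold all lay on the side where more of all genes lay, and in CPEB4 RIP 1 lay on each side. Below the threshold, Pias1 differed by -1.09 in CPEB4 RIP.

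Among the other pathway genes, Rasd2, which is also on the list of medium spiny neuron markers, had differences between the pools that depended on the probe set. The representative one, 1427343_PM_at, read 7.18 in HD and 9.17 in WT CPEB4 RIP, 6.49 in HD and 9.31 in WT CPEB1 RIP, 6.55 in HD and 9.42 in WT IgG RIP, and 6.76 in HD and 7.43 in WT input. The other one, 1427344_PM_s_at, read 5.52 in HD and 7.10 in WT CPEB4 RIP, 5.45 in HD and 8.71 in WT CPEB1 RIP, 5.64 in HD and 4.94 in WT IgG RIP, and 6.48 in HD and 8.20 in WT input. Both were lower in HD in the antibody RIPs and in input, and they disagreed in direction in IgG RIP. The lower mean of the marker list in the HD RIPs, which includes Rasd2, stood beside these values; its part in them was not tested.

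**Figure D4:**
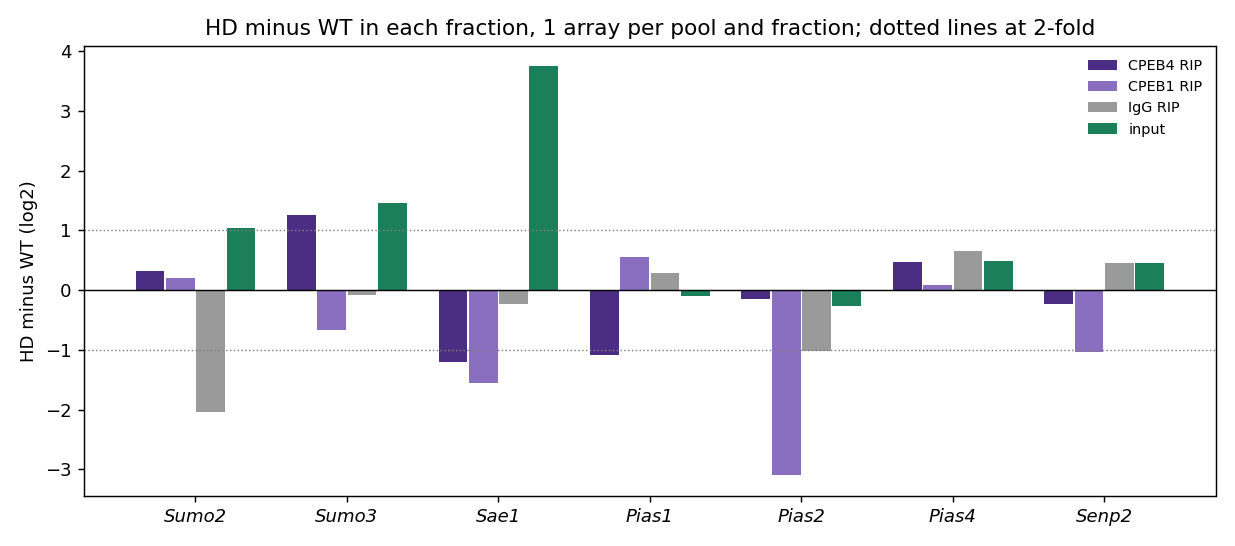
HD minus WT log2 difference (vertical axis) of the representative probe set of each member (horizontal axis) in CPEB4 RIP, CPEB1 RIP, IgG RIP and input; each bar is the difference of 2 arrays and the dotted lines mark 2-fold. The bars beyond 3 are Sae1 in input at 3.75 and Pias2 in CPEB1 RIP at -3.10.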

How the data were processed

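Per the submitters' processing notes the authors made the deposited log2 values with RMA, which corrects background, normalizes arrays and summarises each probe set; its version, and whether it was run on the 8 arrays at once, are not stated in the notes. No further scaling was applied. The platform annotation gave 1 symbol to 28898 of the 45101 probe sets, several to 551 and none to 15652. Of the probe sets with 1 symbol, 28689 could be matched in RefSeq's table for GRCm38.p6, and the rest kept the platform symbol. Together they made 17097 genes. Comparisons used limma 3.58.1 (R 4.3.3; two-sided moderated test with fraction and pool as terms), with 3 residual degrees of freedom and 2.29 from the prior. The procedure was tested on simulated data. The number of arrays limits the precision.

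The members and lists were chosen with earlier results of these data known. Named were all members, the 4 other pathway genes with the largest absolute CPEB4 RIP minus IgG RIP difference, the 2 with the largest absolute CPEB1 RIP minus input difference, any past the test, and the 5 genes most correlated with Sumo2; some genes of the pathway list are not reported here. Figures were drawn with matplotlib 3.10.9. Alternatives changed the filter, the probe set rule, the scaling, the block, eBayes, the fold threshold and the arrays in the fit. Those for Senp1 probe set 1424330_PM_at and Sumo2 probe set 1415782_PM_at were added after seeing the data.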

Additional observations from a re-analysis of the deposited data

Results flagged for a closer look

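The representative Sae1 probe set, 1430021_PM_a_at, had opposite directions in the 2 pools against input. For CPEB4 RIP over input the HD pool gave -2.45 and the WT pool 2.50, a difference between the pools of -4.95. For CPEB1 RIP over input the HD pool gave -2.62 and the WT pool 2.68, a difference of -5.30. Each pool has 1 array per fraction and both comparisons share the input arrays, so the difference between the pools was not tested. The HD input array read 10.02 with this probe set and 3.88 with Sae1 probe set 1416443_PM_a_at.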

How the results depend on the processing

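Of the alternative values for single genes or probe sets, 356 kept their direction and side of the threshold, 66 lost a call, 3 gained one and 2 changed sign. The sign changes were Pias4 in CPEB4 RIP over IgG RIP, at -0.093 after quantile normalization, and Sae1 in IgG RIP over input, which ranged from -4.50 to 0.24 when 1 array was left out, the positive value being that without HD input. No member other than Sumo2 was called in CPEB4 RIP over input, CPEB4 RIP over CPEB1 RIP or the CPEB1 RIP and IgG RIP comparisons under any alternative of the gene fit. The Sumo2 and Sumo3 calls in CPEB4 RIP over IgG RIP were lost without a filter, after quantile normalization, with only the arrays of the 2 fractions compared, and without any 1 of the CPEB4 RIP, IgG RIP or input arrays; Sumo2 also lost it without either CPEB1 RIP array.

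The members' median CPEB4 RIP over IgG RIP difference, 2.39, was 2.15 without a filter, with the 75th percentile filter or over all probe sets, 1.68 with the mean of probe sets, 2.17 after cyclic loess, 2.55 after median centring, 1.75 after quantile normalization, and 2.26 to 2.52 leaving out 1 array. Without the filter, where limma called 1.26% of 17097 genes, 1 other pathway gene was called in that comparison (Desi2). Over all probe sets 1 was called (Senp1) there, in CPEB4 RIP over input and in CPEB4 RIP over CPEB1 RIP. Limma called 2.87%, 2.4% and 0.754% of the 22550 probe sets in these comparisons. The Senp1 calls were lost after quantile normalization. The Desi2 and Senp1 probe sets concerned were high only in CPEB4 RIP and singled out after their values were seen, so nothing is read from these calls. The 10 HD minus WT differences past 2-fold became 4 with the mean of probe sets and 3 at 3-fold.

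Over all genes, the deposited values gave 269 calls for CPEB4 RIP over IgG RIP, 154 over input and 16 over CPEB1 RIP. Without the replicate block these were 348, 239 and 81. Among the genes above the 75th percentile they were 135, 9 and 0, and over all probe sets 647, 542 and 170. Over input and CPEB1 RIP they were 305 and 61 after cyclic loess; over CPEB1 RIP alone they were 26 after median centring, 75 with trended robust eBayes and 1 with the mean of probe sets. After quantile normalization, and with only the 2 fractions compared, limma called 0 genes in these comparisons. Leaving out 1 array gave 0 calls in each, except 274 over IgG RIP without either CPEB1 RIP array. IgG RIP over input, with 3 calls, gave 0 to 9, and CPEB1 RIP over input, with 2, gave 0 to 3. Median centring moved the median of all genes in CPEB4 RIP over IgG RIP to 0.10 and quantile normalization to -0.25, from -0.06. Leaving out either CPEB1 RIP array, which is outside that comparison, also changed the side of the threshold on which Pias2 lay. The arrays share 1 estimate of spread, and the Pias2 CPEB1 RIP values were 4.73 in HD and 7.83 in WT. Nothing is read from this change, since the members are only described in that comparison. The cause of these changes was not tested.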
